A study of Rattus norvegicus with 14 samples.

Results

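The 9 complement genes described here are C1qa, C1qb, C1qc, C1s, C2, C3, Cfb, Serping1 and C3ar1, chosen by name from the array annotation. All 9 passed the filter on dim probes, which asked for signal well above background on 4 or more of the 14 arrays, as did 16134 named genes in all. The tissue was plantaris, a calf muscle made mostly of fast fibres, from Wistar rats. The control group (n = 4) was fed 1000 IU/kg vitamin D, the depletion group (n = 6) a diet depleted of vitamin D, and the repletion group (n = 4) first such a diet and then one with vitamin D given back. Each muscle was hybridised in 1 colour to its own Agilent rat array, and titles number the samples as biological replicates. The vitamin D content of the depletion and repletion diets, the feeding times and the ages of the rats are not stated in the labels. The diet field of depletion replicate 1 names depletion and repletion, against its title, and the array was kept with the depletion group.

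Complement is a cascade of plasma proteases that tags cells and debris for removal and draws in leukocytes. In the classical pathway C1q, built from the A, B and C chains of C1qa, C1qb and C1qc, binds antibody or dying cells. The attached protease C1r then activates C1s, which cleaves C4 and C2 to form the enzyme that splits C3. In the alternative pathway factor B, encoded by Cfb, pairs with C3b into another C3-splitting enzyme. C1 inhibitor, encoded by Serping1, blocks C1r and C1s, and the receptor encoded by C3ar1 responds to the C3 fragment C3a. Most plasma complement is made by hepatocytes, whereas C1q comes mainly from macrophages and dendritic cells, which in muscle lie between the fibres.

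The table of RefSeq promoters used here (build GRCr8) holds 4 of the 9 genes, each with 250 bases before and 50 after the gene start. Shown first are those of C1qa and C1qb, genes of 1 cluster whose levels varied together, with copies of the ETS core GGAAGT and a match to the STAT pattern TTCNNNGAA in capitals, at chr5:154419884-154420183 and chr5:154407778-154408077 on the minus strand.
C1qa: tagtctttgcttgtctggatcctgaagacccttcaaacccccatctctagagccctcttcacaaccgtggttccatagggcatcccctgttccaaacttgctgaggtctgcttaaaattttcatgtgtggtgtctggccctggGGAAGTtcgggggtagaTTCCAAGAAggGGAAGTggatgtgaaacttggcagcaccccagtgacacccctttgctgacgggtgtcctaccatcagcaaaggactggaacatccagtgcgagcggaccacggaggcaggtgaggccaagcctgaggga
C1qb: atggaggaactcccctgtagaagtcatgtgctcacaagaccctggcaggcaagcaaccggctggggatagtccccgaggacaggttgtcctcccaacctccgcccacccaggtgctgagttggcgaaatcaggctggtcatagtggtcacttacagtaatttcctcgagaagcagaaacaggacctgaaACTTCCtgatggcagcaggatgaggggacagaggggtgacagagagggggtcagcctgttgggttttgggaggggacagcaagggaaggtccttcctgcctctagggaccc
C3 is shown beside Alb, the albumin gene, because both were highest on the same 2 arrays. Capitals mark matches to the C/EBP pattern TTGCNNAA in both and to the nuclear receptor half-site AGGTCA in C3, at chr9:2201290-2201589 and chr14:17906930-17907229 on the minus strand.
C3: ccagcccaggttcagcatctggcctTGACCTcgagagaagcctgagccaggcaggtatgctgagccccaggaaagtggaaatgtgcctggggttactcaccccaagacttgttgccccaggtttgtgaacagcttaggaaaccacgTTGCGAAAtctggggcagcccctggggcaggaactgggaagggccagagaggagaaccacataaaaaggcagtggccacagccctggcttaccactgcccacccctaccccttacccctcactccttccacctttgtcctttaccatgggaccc
Alb: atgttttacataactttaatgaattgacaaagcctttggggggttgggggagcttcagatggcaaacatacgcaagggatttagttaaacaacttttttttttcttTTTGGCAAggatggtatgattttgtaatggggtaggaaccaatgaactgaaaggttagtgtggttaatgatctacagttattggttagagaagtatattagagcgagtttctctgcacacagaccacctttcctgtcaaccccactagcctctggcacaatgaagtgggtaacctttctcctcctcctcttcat
Motifs were searched on both strands, and the marked matches do not overlap each other. The ETS core lay 107 and 79 bases before the start of C1qa and 61 bases before that of C1qb, and 22.6% of 33469 rat promoters of this length held it. The STAT pattern lay 90 bases before the start of C1qa and was held by 8.87% of promoters. The C/EBP pattern lay 104 bases before the start of C3 and 144 before that of Alb (10.6% of promoters), and the half-site 225 bases before that of C3 (16.2%). The AP-1 pattern TGANTCA (7.33%) had a match 72 bases before the start of C3ar1. The exact HNF1 palindrome had no match in these 5 windows, but only 1 of 33469 promoters held it (0.00299%). A search this strict would miss nearly every window, so it cannot tell whether these promoters hold a less exact HNF1 site. A match describes letters only, and no binding was measured.

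On each array 82.79% to 88.05% of spots were well above background, and arrays correlated at 0.956 to 0.991 over 26387 tested probes. The arrays came from 5 slides, all scanned on 1 day. More probes were called for slide than for diet: with diet in the model 7398 probes differed between slides, and with slide in the model 0 differed between diets at an adjusted p under 0.05. Every difference below therefore has slide as a block. All 9 tested markers of skeletal muscle fibres were well above background on all 14 arrays, with a summed level between 10.86 and 11.31. A level is log2 of a gene's signal relative to the array's 75th percentile, so that 0 is the signal of that percentile, and levels are compared between arrays but not between genes. A summed level is log2 of the sum of the signals of a list's genes, so the brightest genes weigh most in it.

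Depletion replicates 1 and 2 stood apart in several hepatocyte transcripts, though not in all that were listed. Alb, the main plasma protein of the liver, was at 0.93 and 1.06 on these arrays and between -9.59 and -5.67 on the other 12, of which 5 were well above background. Ttr, the plasma carrier of thyroid hormone, was at -1.01 and 0.27 there and between -5.57 and -4.61 elsewhere. Fgb, a fibrinogen chain, was at -2.54 and -1.72 there and between -9.38 and -5.90 elsewhere. Ahsg and Serpina1, also on the hepatocyte list, did not set the pair apart. Ahsg was at 0.54 and 0.02 there and between 0.08 and 0.57 elsewhere. Serpina1 was at -3.11 and -3.04 there and between -5.58 and -2.43 elsewhere. Values without this pair stand beside the main results, and its part in them was not tested otherwise.

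C3, the central component of the cascade, had the widest differences between arrays of the 9 genes, a 15.3-fold range. Its probe lies at chrUn:64513437-64513496 on the minus strand (build rn4), on sequence that this build does not place on a chromosome. In control muscles C3 was at -5.86, -5.69, -5.75 and -5.98. In depletion muscles it was at -2.85, -2.54, -5.56, -4.80, -4.77 and -6.47 (replicates 1 to 6), and in repletion muscles at -5.46, -4.63, -5.73 and -5.62. In 5 of 6 depletion muscles the level lay above every control muscle, while replicate 6 lay below all of them, so the groups overlapped. Whole muscle was measured, so here and below fewer cells of a type and less RNA per cell cannot be told apart. The group means were -5.82 ± 0.13 (SD, n = 4), -4.50 ± 1.53 (SD, n = 6) and -5.36 ± 0.50 (SD, n = 4).

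With slide as block, C3 was higher in depletion than in control by 2.06 ± 0.52 (SE) on the log2 scale, 4.17-fold, with a 95% interval of 0.90 to 3.22. This difference had an unadjusted p of 0.00291 and an adjusted p of 0.832 by limma, and so did not pass the threshold. It ranked 12 by size and 42 by p among 26387 probes. Depletion replicates 3, 4 and 6 lay on slides 3 and 5, which held no control array for a direct comparison. Within the other slides C3 was higher in depletion by 2.93 on slide 1, by 3.21 on slide 2 and by 1.21 on slide 4. The first 2 of these values come from depletion replicates 1 and 2, the arrays with the high Alb, Ttr and Fgb levels. Without both arrays the difference was 0.88 ± 0.40 (SE), with an adjusted p of 0.987. With all arrays and no slide block it was 1.32. It was 0.96 after normexp background correction, which adds an offset of 50 to signals such as that of C3 (median 41.7), and 1.07 in the authors' deposited table. With depletion replicate 1 counted as repletion it was 1.97. Repletion against depletion gave -0.96 ± 0.47 (SE; adjusted p 0.933 by limma), -0.08 ± 0.34 without the pair and -0.44 with depletion replicate 1 counted as repletion. Within slides that difference was -2.61, -2.09 and -0.54 on slides 1, 2 and 3 but 0.86 on slide 5. Repletion lay above control by 1.11 ± 0.57 (SE) on the log2 scale, with an interval that included 0 (-0.17 to 2.38; adjusted p 1.0), and by 0.80 ± 0.34 without the pair. With depletion replicate 1 counted as repletion this difference was 1.52.

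The genes whose levels were most like C3 over the 14 arrays, after each slide's mean was removed, were Pan3, a subunit of a poly(A)-shortening enzyme (r = 0.95), Alb (r = 0.94) and Azgp1, a secreted glycoprotein of liver and fat (r = 0.94), of 15927 genes compared. Without depletion replicates 1 and 2, the arrays farthest out in C3, these values were 0.88, 0.81 and 0.86. All such likeness values share slides, and 2 arrays alone on a slide give mirror-image deviations, so they describe these arrays only. Of 8 hepatocyte markers, 8 were higher in depletion than in control with a median of 1.62. An unadjusted p under 0.05 was reached by 4 of them, against 4.83% of all probes. The median of these markers was 0.26 under normexp and 0.49 in the authors' deposited table. Their summed level was 0.35 to 0.65 in control, 0.25 to 2.28 in depletion and 0.24 to 0.59 in repletion, with depletion replicates 1 and 2 at 2.08 and 2.28. Outside this pair the sum was mostly the signal of Ahsg, for example 0.65 against 0.50 for Ahsg alone in control replicate 1. The defining markers Alb, Apoa1, Apob, Fga and Fgb were each not well above background on at least 1 array. Without the pair 5 of 8 hepatocyte markers were higher in depletion than in control, with a median of 0.07.

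**Figure D1:**
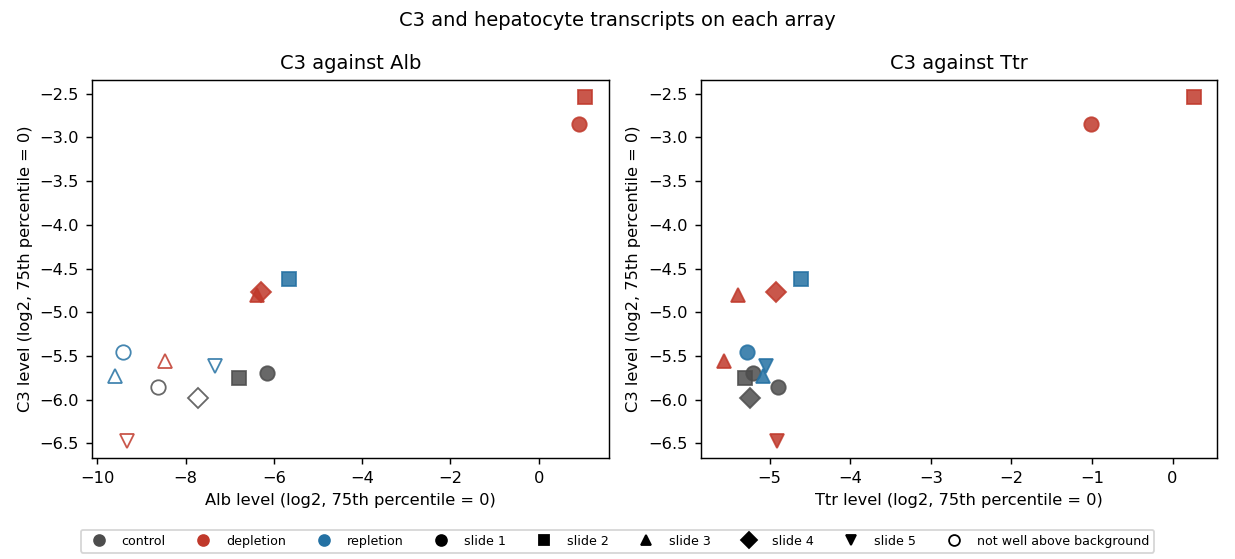
C3 level (vertical axis, log2, 75th percentile of the array = 0) against the level of Alb (left) and Ttr (right) on each of the 14 arrays, with colour for diet, shape for slide and open symbols where the hepatocyte gene was not well above background. Depletion replicates 1 and 2 sit alone at the upper right of both panels, with C3 at -2.85 and -2.54.

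The C1q chains lie next to each other in the rat genome, in the order C1qb, C1qc, C1qa. Their probes are at chr5:155662578-155662637 (C1qa), chr5:155656638-155656697 (C1qc) and chr5:155647530-155647589 (C1qb), all on the minus strand of rn4, with 15.0 kb from C1qa to C1qb. In control muscles C1qa was at 1.27, 1.12, 1.495 and 1.03, and in repletion muscles at 1.52, 1.59, 1.68 and 1.84. In depletion muscles it was at 1.96, 2.10, 0.51, 2.11, 1.43 and 0.68 (replicates 1 to 6). The 4 repletion muscles thus lay above all 4 control muscles, while the depletion muscles reached from below the lowest control to above the highest repletion level.

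C1qb showed the same layout. It was at 3.03, 2.72, 3.11 and 2.60 in control and at 3.23, 3.14, 3.13 and 3.34 in repletion, again without overlap. In depletion it was at 4.2, 3.51, 2.03, 3.57, 3.02 and 2.23. C1qc was at -0.58, -0.95, -0.46 and -1.07 in control, at 0.54, -0.09, -1.78, 0.17, -0.16 and -1.53 in depletion and at -0.53, -0.47, -0.40 and 0.07 in repletion, where control and repletion overlapped. For each chain depletion replicates 3 and 6 held the 2 lowest levels of all 14 arrays.

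None of the C1q differences between diets passed the threshold. Against control, depletion was higher by 0.39 ± 0.36 (SE) for C1qa, 0.53 ± 0.39 for C1qb and 0.58 ± 0.49 for C1qc on the log2 scale, with adjusted p of 0.856, 0.836 and 0.846 by limma. The C1qa interval ran from -0.43 to 1.21, which leaves room for changes of either sign. Repletion against control gave 0.55 ± 0.40, 0.59 ± 0.43 and 0.70 ± 0.53 (SE) in the same order, with adjusted p of 1.0 each. Only slides 1 and 2 held both of these diets, and the differences within them were smaller. They were 0.32 and 0.10 for C1qa, 0.36 and 0.03 for C1qb, and 0.24 and -0.008 for C1qc. Repletion against depletion gave 0.16 ± 0.33, 0.07 ± 0.36 and 0.12 ± 0.45, and 0.51 ± 0.41, 0.47 ± 0.40 and 0.52 ± 0.55 without depletion replicates 1 and 2. Slides did not share 1 direction in that last comparison: for C1qb it was -0.97, -0.37, 0.34 and 1.12 on slides 1, 2, 3 and 5. The difference of depletion from control was, without the same pair, -0.07 for C1qa, -0.05 for C1qb and 0.00 for C1qc. Leaving out depletion replicate 1 alone lowered it to 0.20, 0.16 and 0.21.

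C1s, the protease that cleaves C4 and C2, followed the C1q chains over the arrays. Its probe is at chr4:160736725-160736784 on the minus strand (rn4), and its gene neighbours C1r. C1s was at 0.57, 0.17, 0.33 and 0.23 in control and at 0.54, 0.61, 0.46 and 0.62 in repletion. In depletion it was at 0.92, 0.71, -0.08, 0.58, 0.87 and -0.09, again lowest in replicates 3 and 6. Depletion exceeded control by 0.38 ± 0.21 (SE; adjusted p 0.832 by limma) and repletion exceeded it by 0.47 ± 0.23 (SE; adjusted p 1.0). The first value was 0.18 ± 0.29 without depletion replicates 1 and 2. With slide means removed, C1s correlated with C1qa, C1qb and C1qc at r = 0.90, 0.91 and 0.94, and the chains with each other at 0.96 to 0.98. C1r, the partner protease of C1s, was the third gene most like it (r = 0.95), after the macrophage mannose receptor Mrc1 (r = 0.97) and the Fc receptor chain Fcer1g (r = 0.96).

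The genes most like the C1q chains, apart from each other, were genes known from leukocytes. C1qa was most like Apbb1ip, an adaptor in integrin activation (r = 0.98). C1qb was most like Alox5ap, which serves leukotriene synthesis (r = 0.98), and also like Itgb2, the beta chain of complement receptor 3 (r = 0.97). These values were 0.98, 0.97 and 0.97 without the 2 arrays farthest from the median. Itgb2 itself was at -2.75, -3.16, -4.32, -3.06, -3.82 and -5.02 in depletion replicates 1 to 6.

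**Figure D2:**
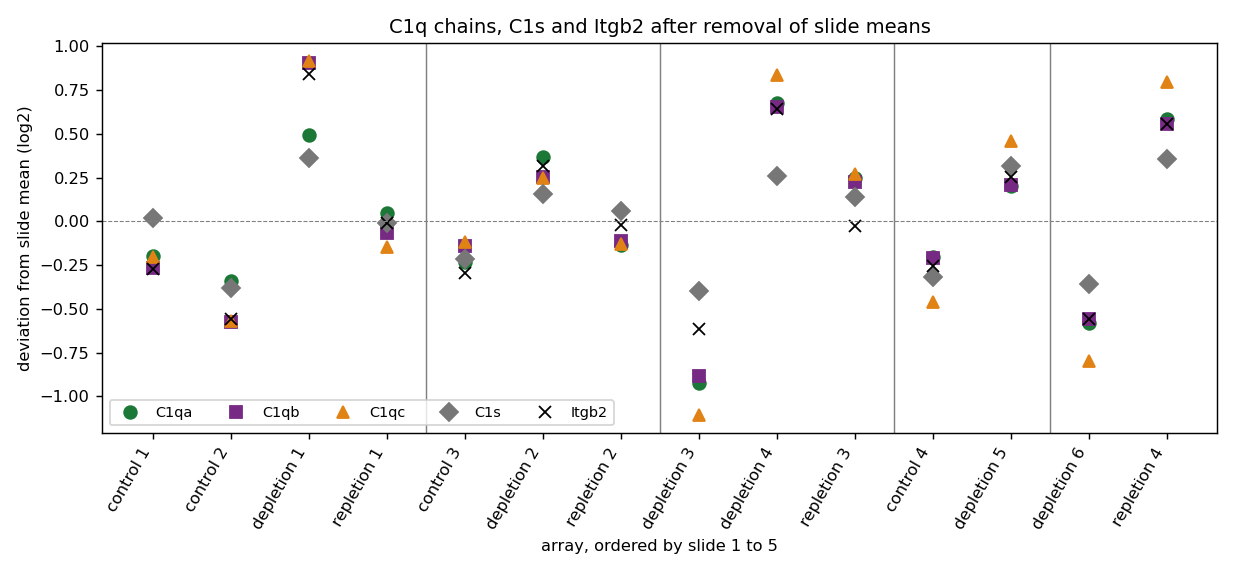
Deviation from the slide mean (log2) of C1qa, C1qb, C1qc, C1s and Itgb2 on each of the 14 arrays, ordered by slide with vertical lines between slides. The 5 genes tend to share a sign on an array, low in depletion replicates 3 and 6 and control replicate 2 and high in depletion replicates 1 and 4 and repletion replicate 4.

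The summed level of macrophage markers moved with the C1q genes, though not every marker did. Of 23 listed markers 22 were tested, and 21 of these were well above background on all arrays (not Marco). The summed level of the 21 with a value on every array (not Lyz2, missing in control replicate 1) was 3.50 to 3.82 in control, 3.37 to 4.47 in depletion and 3.89 to 4.10 in repletion. In depletion replicates 3 and 6 it was 3.37 and 3.50, and in replicates 1, 2 and 4 it was 4.47, 4.41 and 4.38. Control and repletion arrays did not overlap in this sum, as for C1qa and C1qb. Of the 22, 21 were higher in depletion than in control (median 0.48) and 20 in repletion than in control (median 0.45), 16 and 16 under normexp, with 0 passing the threshold. Aif1, a macrophage cytoskeletal protein, and Fcgr1a, the high-affinity Fc receptor, were higher in depletion than in control by 0.58 and 0.65 on the log2 scale. They were the 2 with an unadjusted p under 0.05 in that comparison, against 4.83% of all probes. Adgre1, Csf1r and Cx3cr1 differed by only 0.04, 0.04 and 0.05, and Ms4a7 was the 1 lower (-0.075). Csf1r was highest of all arrays in depletion replicate 6 (-0.77), where the C1q chains were low. The count of markers higher in depletion was 17 of 22 (median 0.20) without depletion replicates 1 and 2. The summed macrophage level, with slide means removed, correlated with the C1q genes at r = 0.94, 0.93 and 0.92 for C1qa, C1qb and C1qc. The part of macrophage number in the C1q levels was not tested.

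C2, the other substrate of C1s, and Cfb, its counterpart in the alternative pathway, are neighbouring genes whose probes lie 6.62 kb apart, at chr20:4071119-4071178 and chr20:4077743-4077802 on the plus strand of rn4. C2 was at -1.33, -0.82, -1.0 and -1.49 in control, at -0.85, -0.80, -1.65, -1.17, -0.89 and -1.92 in depletion and at -0.83, -1.09, -1.07 and -1.19 in repletion. The 3 groups overlapped, and again depletion replicates 3 and 6 were the lowest arrays. Depletion exceeded control by 0.20 ± 0.21 (SE; adjusted p 0.868 by limma), and a further C2 probe, which correlated with the first at r = 0.93, gave 0.05 ± 0.19. Without the pair high in Alb the first value was 0.06 ± 0.29, and with no slide block it was -0.06. The genes most like C2 were the chemokine Ccl1 (r = 0.93), the ADP receptor P2ry13 (r = 0.92) and Tnfaip8l2, an immune regulator (r = 0.90).

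Cfb varied between slides more than with diet: slide alone accounted for 71.4% of its variance and diet alone for 4.23%. Each share was taken without the other, and diets were not spread evenly over slides, so the shares do not add up. It was at -0.26, 0.90, -0.63 and 0.58 in control, at 0.86, -0.68, 0.88, 0.67, 1.01 and -0.44 in depletion and at 0.93, -0.08, 0.90 and 0.14 in repletion. The 3 arrays of slide 2 (control replicate 3, depletion replicate 2 and repletion replicate 2) were the lowest in their groups. Within slides depletion minus control was 0.53, -0.05 and 0.43 on slides 1, 2 and 4. In the fit depletion exceeded control by 0.32 ± 0.24 (SE; adjusted p 0.836 by limma). Repletion exceeded control by 0.63 ± 0.26 (SE), with an unadjusted p of 0.0361 and an adjusted p of 1.0. On both slides that held these diets the difference was positive, 0.60 on slide 1 and 0.55 on slide 2. Without control replicate 1 depletion minus control was 0.10 and repletion minus control 0.38. Despite its place beside C2, Cfb correlated with it at r = 0.58, and with the C1q chains at 0.20 to 0.21. The genes most like Cfb were Sac3d1 (r = 0.91), Ssbp1, a mitochondrial DNA-binding protein (r = 0.90), and the transcription kinase Cdk12 (r = 0.90), and the first had r = 0.74 without the 2 farthest arrays.

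Serping1, the inhibitor, had the smallest unadjusted p in repletion against control among the 9 genes. Its probe is at chr3:67968812-67968871 on the minus strand (rn4). It was at 2.75, 2.48, 2.59 and 2.38 in control, at 3.29, 2.75, 2.72, 2.76, 2.72 and 2.28 in depletion and at 3.09, 2.97, 2.55 and 2.55 in repletion. Replicate 6 again was the lowest depletion array and replicate 1 the highest, and the groups overlapped. Depletion exceeded control by 0.42 ± 0.13 (SE) on the log2 scale, 1.34-fold, with an interval of 0.13 to 0.71, an unadjusted p of 0.00968 and an adjusted p of 0.832 by limma. On slides 1, 2 and 4 the difference was 0.68, 0.16 and 0.34. It was 0.38 ± 0.16 without depletion replicates 1 and 2. Repletion exceeded control by 0.44 ± 0.14 (SE), 1.35-fold, with an unadjusted p of 0.0121 and an adjusted p of 1.0 by limma, and by 0.48 and 0.38 on slides 1 and 2. Repletion against depletion was 0.02 ± 0.12 (SE), with an interval of -0.25 to 0.29. The genes most like Serping1 were the olfactory receptor Or7g34b (r = 0.95, a probe well above background on 4 of 14 arrays), the sorting nexin Snx9 (r = 0.92) and the Ras regulator Dab2ip (r = 0.91).

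C3ar1, the C3a receptor, was well above background on 12 of 14 arrays, on 4 of 4 control, 4 of 6 depletion and 4 of 4 repletion arrays. Its probe is at chr4:159326458-159326517 on the minus strand (rn4). It was at -6.32, -6.31, -6.38 and -6.11 in control, at -5.96, -6.59, -8.16, -5.79, -5.81 and -7.10 in depletion and at -6.07, -6.63, -6.43 and -6.67 in repletion. Depletion replicates 3 and 6 were the lowest here too. The diet differences were 0.06 ± 0.43 for depletion minus control, 0.20 ± 0.39 for repletion minus depletion and 0.26 ± 0.47 for repletion minus control (SE), and each changed sign under other processing. The genes most like it were Apobr, a lipoprotein receptor (r = 0.95), Fam193a (r = 0.95) and Golga7b (r = 0.94), of which Fam193a had r = 0.53 without the 2 farthest arrays.

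**Figure D3:**
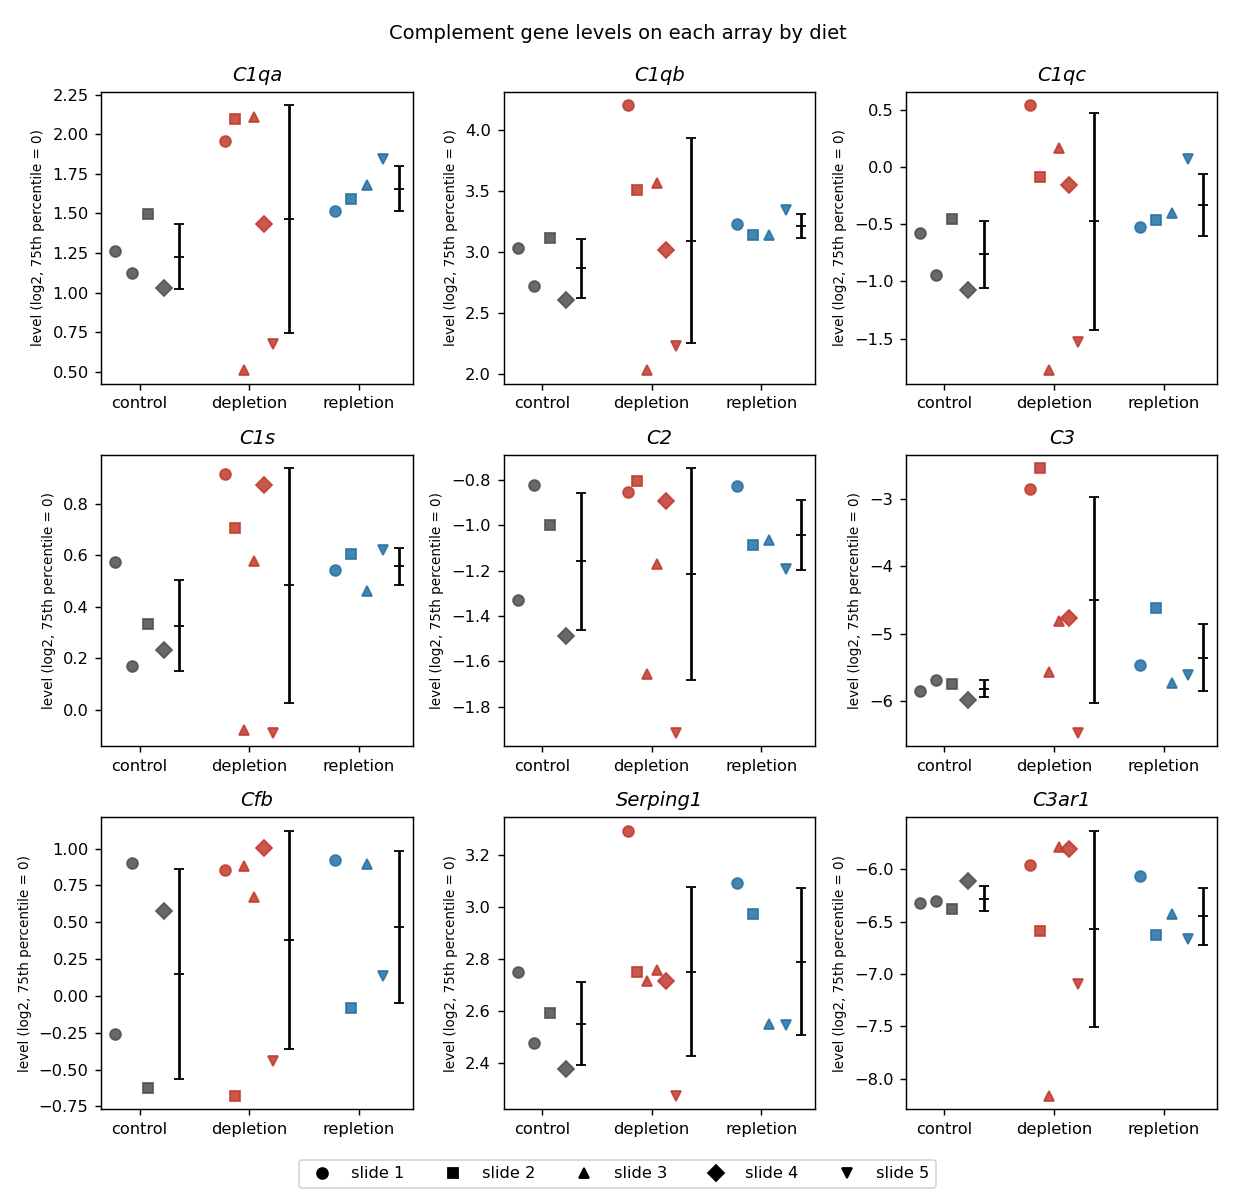
Level of each of the 9 genes (log2, 75th percentile of the array = 0) on the 14 arrays by diet, with point shape for slide and black bars for the group mean and SD. The depletion group has the widest SD in every panel, and its C3 levels reach from -6.47 to -2.54.

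Set side by side, the 9 genes were all higher in depletion than in control, with a median difference of 0.39 on the log2 scale; of the scalings tried, normexp gave 8 of 9, with C3ar1 lower. Over all 26387 probes 45.3% were above 0, with a median of -0.02. At an adjusted p under 0.05 limma called 0 of 9, against 0% of all probes. An unadjusted p under 0.05 was reached by 2 of 9, C3 and Serping1, against 4.83% of probes in either direction and 2.14% in the higher one. No gene had groups without overlap, against 0.349% of probes in that direction. Without depletion replicates 1 and 2, 6 of 9 were higher and the median was 0.06. With no slide block 7 of 9 were higher, and the median was 0.23.

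For repletion against control all 9 were again higher, with a median of 0.55, but with C3ar1 lower (8 of 9 higher) under normexp, in the authors' deposited table and with no slide block. Over all probes 53.5% were above 0, with a median of 0.01. Limma called 0 of 9 (0% of all probes), and 2 of 9, Cfb and Serping1, had an unadjusted p under 0.05, against 1.99% of probes in either direction and 1.3% in the higher one. C1qa and C1qb did not overlap between these groups, which held for 0.697% of probes in that direction. With only these 2 groups in the fit all 9 stayed higher, but with a median of 0.22. In both comparisons the 4 control arrays are shared, so the 2 sets of values are not independent. For repletion against depletion 8 of 9 were higher, with a median of 0.12 (7 of 9 under normexp, median centring and the authors' deposited table). Without repletion replicate 4, 3 of 9 were higher with a median of -0.09. Leaving out depletion replicate 6 gave the same values, because slide 5 holds only these 2 arrays and either alone gives no difference. Without depletion replicate 3, 4 of 9 were higher with a median of -0.05. Without depletion replicates 1 and 2, 8 of 9 were higher with a median of 0.28. Over all probes 58.9% were above 0, with a median of 0.04. Limma called 0 of 9 (0% of all probes), and none reached an unadjusted p under 0.05, against 3.48% of probes in either direction and 2.51% in the higher one. All 9 overlapped between these groups, where 0.235% of probes lay wholly higher in repletion. A p that misses the threshold does not show that the diets gave equal levels, and the intervals admit differences of more than 1 log2 unit for C1qa, C1qb, C1qc, C3 and C3ar1 in depletion against control.

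**Figure D4:**
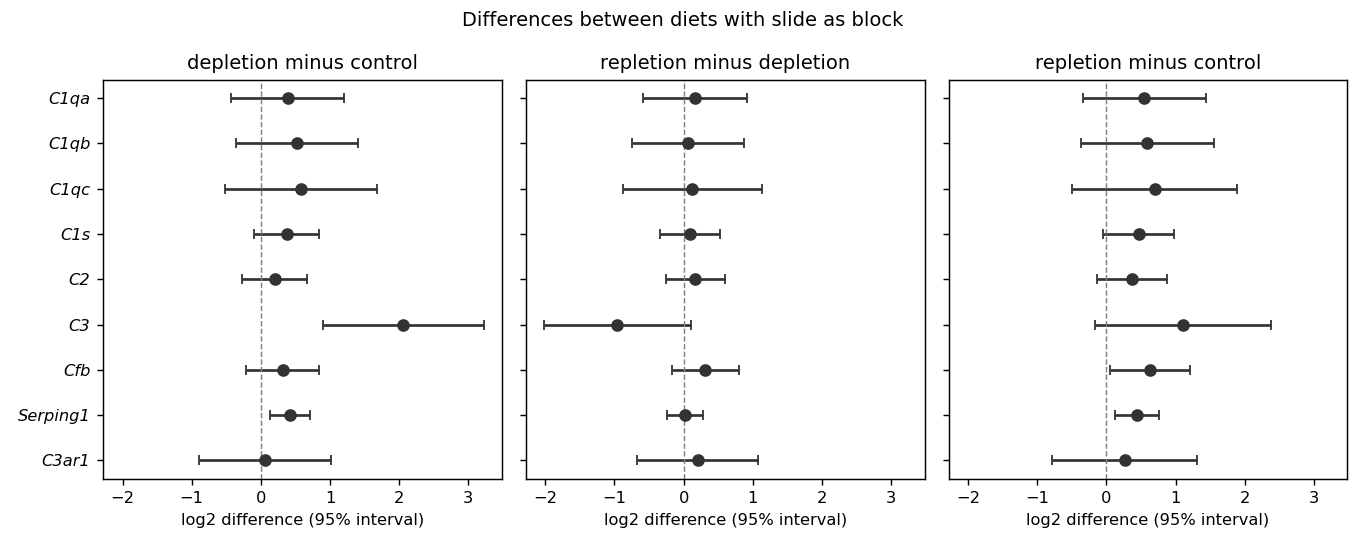
Difference between diets for each gene (log2, with 95% interval, slide as block) in the 3 comparisons, with a dashed line at 0. In depletion minus control C3 (2.06) and Serping1 (0.42) are the 2 genes whose unadjusted interval lies above 0.

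The 9 genes shared a wide spread within the depletion group. The SD was largest in depletion for 9 of 9 genes, against 42.6% of 26387 probes and 18 of 22 macrophage markers. Without depletion replicates 1 and 2 it was largest there for 7 of 9 genes, not Cfb or Serping1, against 27.9% of probes and 18 of 22 macrophage markers. The SD of C3 in depletion was then 0.80 in place of 1.53. Over all probes the median SD was 0.31 in control, 0.34 in depletion and 0.28 in repletion. For C1qb it was 0.24, 0.84 and 0.10. The genes share arrays and some share a cell source, so the 9 are not independent of each other, and depletion has 6 arrays against 4. These SDs are of levels with slide not removed. Depletion arrays lay on all 5 slides, control arrays on slides 1, 2 and 4, and repletion arrays on slides 1, 2, 3 and 5. The part of slide in these SDs was not tested. Among the 36 pairs of genes r was above 0 for 36, with a median of 0.63, and above 0.8 for 7. The lowest value was 0.05, between Cfb and C3ar1.

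**Figure D5:**
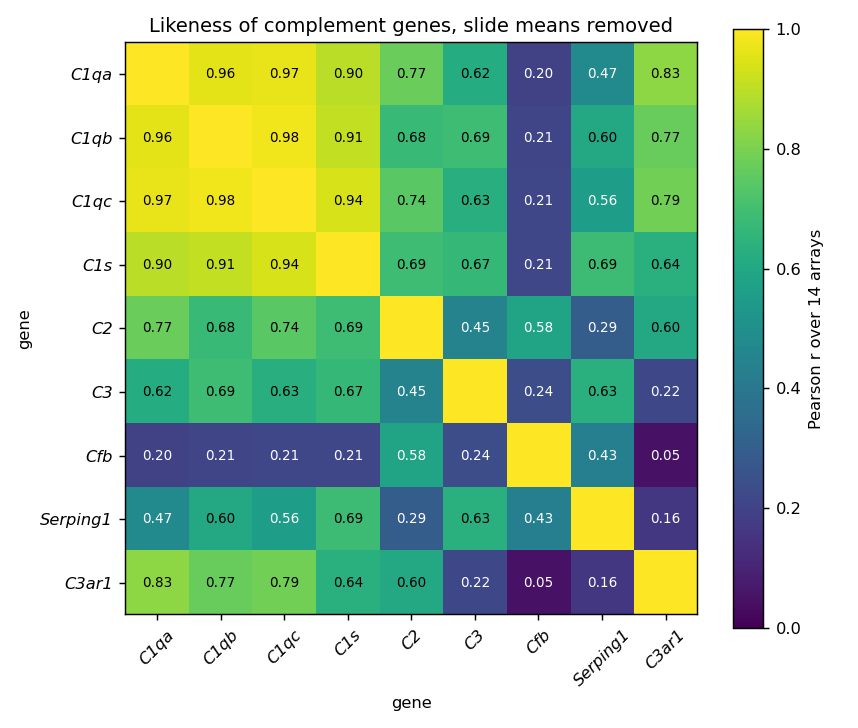
Pearson r between the levels of each pair of the 9 genes over 14 arrays, after each slide's mean was removed. The block of C1qa, C1qb, C1qc and C1s has r from 0.90 to 0.98, and Cfb has r of 0.20 to 0.21 with these 4 genes.

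Of 42 other complement genes on a list of pathway members, 33 were tested. In depletion against control 21 were higher and 12 lower with a median of 0.17, where 45.3% of all probes were above 0. An unadjusted p under 0.05 was reached by 2 of 33, against 4.83% of all probes in either direction and 2.14% in the higher one. Limma called 0 (0% of all probes). Under normexp, which moved the median of all probes to -0.14, 15 of 33 were higher with a median of -0.03. Without depletion replicates 1 and 2, 17 of 33 were higher with a median of 0.006. C5, the precursor of the terminal complex and of C5a, was higher by 1.32 ± 0.51 (SE; unadjusted p 0.0276). C5 was well above background on 13 of 14 arrays, and lay at -4.58 and -4.21 in depletion replicates 1 and 2, against between -7.29 and -6.04 on the other 12 arrays. The pair that was high in C3 and Alb was thus also high in C5, and without it the difference was 0.07 ± 0.27. Cfi, the protease that inactivates C3b, was higher by 0.61 ± 0.25 (SE; unadjusted p 0.0363), and by 0.72 ± 0.25 without the pair. Cfi levels were -1.11, -1.43, -0.21 and -1.29 in control, and the 6 depletion arrays ran from -0.66 to -0.03 and overlapped control through its replicate 3.

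In repletion against depletion 18 of the 33 were higher and 15 lower, where 58.9% of all probes were above 0. The median was 0.03, but between -0.04 and -0.008 under other scalings, and 0.17 with 22 higher without the pair. An unadjusted p under 0.05 was reached by 0 of the 33, against 3.48% of all probes. The 2 smallest p of the 33 belonged to C5, at -0.97 ± 0.47 (SE), and to Cd93, a C1q-binding surface protein of endothelium and myeloid cells, at -0.30 ± 0.15. In repletion against control 21 were higher and 12 lower (median 0.18), where 53.5% of all probes were above 0. An unadjusted p under 0.05 was reached by 2 of the 33, against 1.99% of all probes, and limma called 0 (0% of all probes). Cr1l, a membrane regulator of C3 in rodents, was higher by 0.29 ± 0.12 (SE; unadjusted p 0.0369), and Fcnb, a lectin pathway ficolin, by 0.95 ± 0.42 (SE; unadjusted p 0.0481). The 3 with the brightest probes gave, in depletion against control, 0.19 ± 0.11 for C1qbp, -0.07 ± 0.35 for Cfd (factor D, made by adipocytes) and -0.17 ± 0.34 for Clu (clusterin, a terminal pathway inhibitor), none with an unadjusted p under 0.05. C1r and C4a, which act beside C1s, gave 0.22 ± 0.18 and 0.17 ± 0.35.

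Red blood cell markers also differed between arrays. Hbb, Alas2 and Slc4a1, 3 tested of 5 listed, were well above background on all arrays, and 3 of 3 were higher in depletion than in control with a median of 0.89. Their summed level was 4.12 to 5.22 in control, 4.39 to 6.43 in depletion and 4.48 to 5.47 in repletion, highest in depletion replicate 1. With slide means removed it correlated with C3 at r = 0.85, with C1s at 0.72, with the C1q genes at 0.56 to 0.67 and with Serping1 at 0.65. For C2, Cfb and C3ar1 the values were 0.45, 0.16 and 0.12. Other lists came as close or closer to some genes. C3 had r = 0.88 with the hepatocyte sum and 0.78 with the macrophage sum, and C1s had 0.90 with the macrophage sum. Serping1 had 0.74 with the neutrophil sum and 0.64 with the macrophage sum. The part of red blood cells in these levels was not tested. Leaving out depletion replicates 1 and 2 left 3 of 3 higher, with a median of 0.15.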

How the data were processed

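Total RNA was extracted with Trizol and labelled with Cy3, per the labels' protocols. Per the file headers, the deposited scanner files were made by Agilent Feature Extraction 11.5.1.1 and hold intensity per spot (background-subtracted, detrended, not scaled between arrays). The authors' deposited series table holds log2 values of 26902 probes, with column medians of 8.42 to 8.49 and r of 0.972 to 0.977 with the scanner values; its background correction and filter are not stated in the labels, and it served as an alternative.

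Control spots and outlier-marked spots (0.669% to 1.05%) were left out, repeat spots averaged per probe, and log2 signal taken relative to the 75th percentile of each array. A gene was its brightest probe. Of 30367 probes, 26387 were tested with limma 3.58.1 (R 4.3.3), diet plus slide as block, 7 residual degrees of freedom, and Benjamini-Hochberg adjustment at 0.05; gene differences are limma's moderated tests. The fit was tested on simulated data. Names came from RefSeq tables by accession (18430 probes) or symbol (3176), from the file (357) or not at all (8404). All 9 complement genes and the other named complement genes (those called, or else the 2 smallest p per comparison and the 3 brightest), the likeness measure (top 3 genes by Pearson r) and the marker lists were chosen with earlier results of these data known. Probe coordinates are the files', on rn4. Precision is limited by the number of arrays. A red blood cell marker, withheld for evaluation, is not reported here. Tables were read with Python 3.11.15, pandas 2.3.3 and numpy 2.4.6, and figures drawn with matplotlib 3.10.9.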

Additional observations from a re-analysis of the deposited data

How the results depend on the processing

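Over 780 recomputed differences of the 9 genes, 738 kept their direction and side of the threshold, 42 changed sign and 0 passed it (lowest adjusted p 0.581). All main values were far from the threshold (adjusted p of 0.832 or more by limma), so this count mostly describes signs, not sizes. Some alternatives repeat the same fit, such as leaving out either array of slide 4 or of slide 5, so the 780 are not separate checks. The number of probes called stayed at 0 in all 3 comparisons under every alternative and with each array left out (0 to 0), except 1 probe (Zp2, -3.10 ± 0.21 SE, adjusted p 0.0268 by limma) in repletion minus depletion without depletion replicates 1 and 2, an alternative chosen after seeing the data and the name after its value. Without that pair, depletion minus control was -0.074 for C1qa, -0.052 for C1qb and -0.11 for C3ar1. C3ar1 gave, for depletion minus control, -0.29 with no slide block, -0.11 with slide as a random block, -0.21 with normexp and -0.043 with depletion replicate 1 counted as repletion. For repletion minus depletion C3ar1 gave -0.10 with normexp and -0.043 in the authors' table, and for repletion minus control -0.17 with no slide block, -0.30 with normexp and -0.0030 in the authors' table. With no slide block C2 in depletion minus control was -0.055. Serping1 in repletion minus depletion was -0.026 with median centring and -0.027 without slide 2. Normexp moved the median of all probes to -0.14 in depletion minus control and -0.12 in repletion minus control, so signs under it are relative to that shift. The cause of these changes was not tested. Between deviations of same-numbered arrays from their group means r ran from -0.49 to 0.72, and was over 0.1 in 8 of 12 pairs. Some of these pairs share a slide and slide was not removed, so whether replicate numbers pair the arrays cannot be told. With a replicate block in place of slide, C3ar1 was -0.34 in depletion minus control and -0.17 in repletion minus control, and repletion minus depletion was -0.011 for C1qa, -0.11 for C1qb, -0.041 for C1qc and -0.089 for Serping1. With each array left out, C3ar1 in depletion minus control ran from -0.065 to 0.23. In repletion minus depletion the ranges were -0.12 to 0.34 for C1qa, -0.23 to 0.30 for C1qb, -0.30 to 0.38 for C1qc, -0.085 to 0.22 for C1s, -0.052 to 0.11 for Serping1 and -0.11 to 0.46 for C3ar1. The lowest C1q, C1s and Serping1 values came without repletion replicate 4, and equally without depletion replicate 6, the other array of slide 5.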

Other observations

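Interferon-responsive genes were 18 of 20 higher in depletion than in control (median 0.32) and 17 of 20 in repletion than in control (median 0.34). Over all probes 45.3% and 53.5% were above 0. An unadjusted p under 0.05 was reached by 4 of 20 and 7 of 20, against 4.83% and 1.99% of all probes. Limma called 0 of 20 in either comparison (0% of all probes). Rsad2, an antiviral enzyme, was higher by 1.22 ± 0.31 (SE) in depletion and by 1.01 in repletion. It is 1 of the 20 genes, lies far above the list medians and does not stand for the list. Under normexp 16 of 20 were higher in depletion than in control and 15 of 20 in repletion than in control, with medians of 0.27 and 0.29. Without depletion replicates 1 and 2 the counts were 16 and 16 of 20, with medians of 0.42 and 0.38. Acute-phase and NF-kB genes were 14 of 18 higher in depletion than in control (median 0.32, but 0.14 under normexp and 0.14 without the pair).

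Fibroblast markers were 3 of 15 higher and 12 lower in depletion than in control (median -0.24), but 9 of 15 higher without depletion replicates 1 and 2 (median 0.04). In repletion against depletion 12 of 15 were higher (median 0.32), and 11 of 15 without the pair (median 0.06). Neutrophil markers were 6 of 8 higher in depletion than in control (median 0.60), 3 of 8 under normexp (median -0.06) and 5 of 8 without the pair (median 0.16). Their summed level was 0.84 in depletion replicate 1 and at most -0.43 on the other 13 arrays. The remaining lists lay near 0 or rest on few markers. In depletion against control, muscle fibre markers were 3 of 9 higher (median -0.04), and 6 of 9 without the pair (median 0.07). Mast cell markers were 2 of 6 higher (median -0.22), and 0 of 6 without the pair (median -0.44). Endothelial markers were 5 of 10 higher (median 0.001), with -0.04 under normexp and -0.05 without the pair. Adipocyte markers were 5 of 7 higher (median 0.08), with -0.02 under normexp and 0.05 without the pair. T and NK cell markers were 3 of 8 higher (median -0.08), and 1 of 8 without the pair (median -0.20). B cell markers were 2 of 3 higher (median 0.03), with -0.29 under normexp and -0.09 without the pair.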
